A study of Mus musculus with 8 samples.

Results

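The 9 transcription factors and cofactors Gata1, Gata2, Klf1, Nfe2, Tal1, Zfpm1, Gfi1b, Lmo2 and Bcl11a and the EPO receptor gene Epor were followed across 8 RNA-seq libraries of LT-HSCs. These 10 genes were chosen by symbol for their role in erythroid cells and megakaryocytes, out of 39107 genes with a count and 21902 genes tested. The libraries came from the bone marrow of 4 homozygous asrij floxed mice (replicates 1, 3, 4 and 5), the controls, and 4 asrij KO mice (replicates 2, 3, 4 and 5), with 1 library per mouse. All mice were 6 months old by the labels. The methods state the use of both sexes for the study as a whole, and not for each library. The KO is a whole-body loss of asrij (Ociad1), so every cell type of the marrow carried it, and the floxed controls carried loxP-flanked alleles, with no Cre or treatment named in the labels. LT-HSCs are the stem cells that sustain blood formation over the long term. The methods give their sort as LSK CD150+ CD48+ for these libraries. For RT-qPCR and cell culture the same methods give LT-HSCs as LSK CD150+ CD48-, and which gate applied here cannot be told.

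Erythroid cells and megakaryocytes arise from a shared progenitor, and a small set of DNA-binding factors sets up their genes. GATA2 acts in stem and progenitor cells and is replaced at many of its sites by GATA1 during erythroid maturation. GATA1 works with its cofactor FOG-1 (the product of Zfpm1), with the bridging complex of TAL1 and LMO2, and with KLF1 at erythroid genes. NF-E2, of which Nfe2 encodes a subunit, acts in platelet formation and at globin genes, GFI1B represses genes in both lineages, and BCL11A silences fetal-type globin genes. The EPO receptor passes on the signal of the hormone erythropoietin, which keeps erythroid progenitors alive.

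The DNA upstream of the genes is shown first, because GATA1, KLF1 and TAL1 are proteins that bind known letters. The RefSeq promoter table used (GRCm38.p6) was matched for 8 of the 10 genes, with 10 start sites in all. The upstream sequence of Nfe2 and Lmo2 was not analysed here. The 250 bases before each start were searched on both strands for 3 motifs. The GATA motif was AGATAA, with TGATAA allowed in its place. The letters bound by KLF1 were searched as CACCC. The E-box, bound by TAL1 with its partners, was searched as CAGATG, with CAGCTG allowed in its place. The upstream stretches of the 3 genes whose genotypes did not overlap in count (Gata1, Klf1 and Epor) and of Gata2, the GATA factor that did not pass the test, are given below, 5′ to 3′ along the gene. GATA and CACCC letters are in capitals, and a GATA match on the other strand reads in reverse, as TTATCT in Epor and, in the case of Klf1, TTATCA. The Klf1 stretch was ended at 196 bases, where an annotated exon begins.
Gata1 (chrX:7967911-7968160, minus strand): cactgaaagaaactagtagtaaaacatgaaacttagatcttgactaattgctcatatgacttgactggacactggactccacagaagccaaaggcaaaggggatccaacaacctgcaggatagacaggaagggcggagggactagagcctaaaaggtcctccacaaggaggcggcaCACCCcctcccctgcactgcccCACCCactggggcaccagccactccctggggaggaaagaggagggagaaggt
Klf1 (chr8:84901732-84901927, plus strand): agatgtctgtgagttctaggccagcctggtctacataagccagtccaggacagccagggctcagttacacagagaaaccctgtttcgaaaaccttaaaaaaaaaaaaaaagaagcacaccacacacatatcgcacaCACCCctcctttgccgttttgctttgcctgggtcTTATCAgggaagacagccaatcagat
Epor (chr9:21963577-21963826, minus strand): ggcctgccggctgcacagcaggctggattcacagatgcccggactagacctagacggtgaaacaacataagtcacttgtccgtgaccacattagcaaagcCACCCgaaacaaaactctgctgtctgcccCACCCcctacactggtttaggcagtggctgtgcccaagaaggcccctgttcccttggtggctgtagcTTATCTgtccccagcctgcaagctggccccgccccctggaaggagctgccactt
Gata2, start site 1 (chr6:88193641-88193890, plus strand): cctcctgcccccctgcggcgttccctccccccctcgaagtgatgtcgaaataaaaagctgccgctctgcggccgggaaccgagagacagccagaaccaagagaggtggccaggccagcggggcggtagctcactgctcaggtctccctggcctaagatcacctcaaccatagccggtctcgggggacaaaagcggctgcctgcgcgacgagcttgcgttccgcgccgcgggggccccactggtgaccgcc

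Klf1 and Epor each held a GATA match close to the start, from -80 to -75 and from -54 to -49 (the base just before the start is -1). Gata1 held 2 CACCC matches and no GATA match, and the first start site of Gata2 held none of the 3 motifs. GATA letters were also present upstream of Tal1 (-205 to -200, start site 1) and of Gfi1b (-120 to -115). In all, 4 of 10 start sites held GATA letters, against 16.6% of 32851 RefSeq promoters cut to the same length. CACCC was found at 8 of 10 start sites, against 52.0%, and E-box letters at 2 (Klf1 and Epor), against 25.5%. No match overlapped a match of another motif. These are letters in a window, and binding was not measured.

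**Figure D1:**
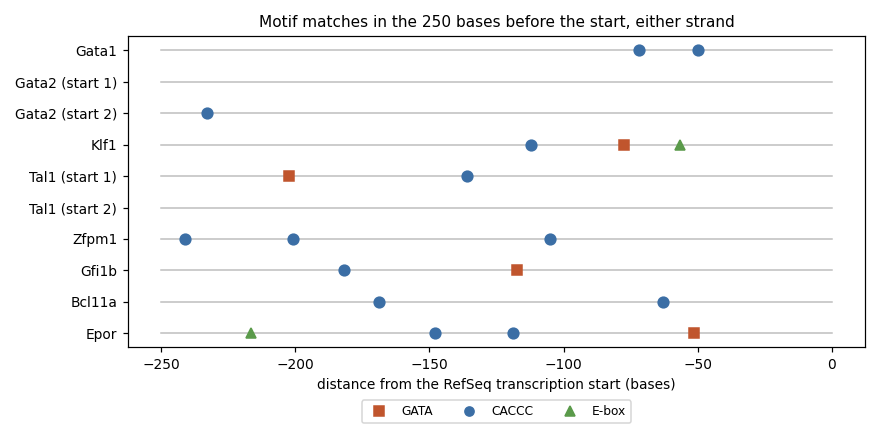
Positions of the 3 motifs in the 250 bases before each RefSeq start site; the x axis is the distance from the start in bases, each row is a start site, and the symbol shape gives the motif. GATA letters lie at 4 of the 10 start sites (Klf1, Tal1 start 1, Gfi1b and Epor), and CACCC at 8.

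The deposited counts held 23412829 to 44874882 gene counts per library. Ociad1 checked the labels, with 31.3 to 66.9 CPM (counts per 1000000 gene counts, scaled by TMM) in the floxed and 11.7 to 19.7 CPM in the KO libraries. Its log2 fold change was -1.58 (SE 0.27, edgeR adjusted p = 0.0249). A count over the whole span does not show which exons the KO lacks. The stem cell label was less well supported by the counts. Among 11 of 12 HSC markers that passed the filter on low counts (Hoxb5 did not), Kit was at 46.8 to 60.2 CPM. Slamf1 (CD150) was at only 0.881 to 4.39 CPM, Procr at 0.142 to 0.962 CPM and Fgd5 at 0.158 to 1.09 CPM. Mecom and Mycn were low too, with highest values of 2.86 and 2.47 CPM. Ly6a (Sca1) was higher, at 4.29 to 15.2 CPM, as was Flt3, at 11.3 to 24.4 CPM. Hlf had means of 9.18 CPM in floxed and 6.76 CPM in KO libraries. The summed level of the 11 was 158 to 190.1 CPM in floxed and 149 to 185 CPM in KO libraries. Most of it came from Kit, Cd48 (35.2 to 55.2 CPM) and Cd34 (17.5 to 36.7 CPM). Since the paper elsewhere sorts LT-HSCs as CD48-, the sum is not a measure of stem cells alone. The marker levels were not set per length, so differences between markers also depend on the length of each gene. Genes of maturing neutrophils, 10 of 10 tested, summed to 16189 to 50537 CPM in floxed and 24472 to 31119 CPM in KO libraries. Haemoglobin genes took 2.84% to 7.66% of the floxed and 12.2% to 24.3% of the KO counts. The libraries therefore held much RNA of genes of maturing cells, and in bulk RNA more cells of a type cannot be told apart from more RNA per cell. The part of this RNA in the values below was not tested.

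Floxed replicate 3 stood apart from the other floxed libraries. Its Epor count was 3.03 times the mean of the other 3, and Gfi1b was at 2.79, Tal1 at 2.61, Gata1 at 2.32, Klf1 at 1.70, Lmo2 at 1.52, Zfpm1 at 1.47 and Bcl11a at 1.42 times that mean. Nfe2 (0.572) and Gata2 (0.341) were lower there than in the other 3. This library also had the highest haemoglobin share of the floxed group (7.66% against 2.84% to 5.02%), and the lowest neutrophil sum (16189 against 44262 to 50537 CPM). The comparisons are therefore given with it and without it. Because it was singled out on the values of these same genes, the p-values without it are not separate support for a difference.

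Gata1, Klf1 and Epor stood about 3-fold higher in KO than in floxed LT-HSC libraries, and Gata1 and Klf1 passed the test. Zfpm1 showed a mean 2.86 times higher, and Gfi1b and Tal1 means 2.05 and 1.78 times higher, without passing. Nfe2, Lmo2 and Bcl11a differed by less than 1.3-fold, and Gata2 was the single member with a lower KO mean. A gene was called when its edgeR adjusted p was under 0.05 over all 21902 genes and its absolute log2 fold change above 1.5. By this rule 2 of 10 members were called, both higher in KO, where 1.19% of all genes were called and 0.452% were called higher. The same 2 passed on the adjusted p alone (all genes 2.97%, higher 1.22%). The genotypes did not overlap in 3 members, Gata1, Klf1 and Epor, all higher in KO, against 14.8% of all genes in either direction and 7.1% higher. Of the 10 log2 fold changes, 9 were above 0, with a median of 0.93, against -0.01 over all genes, of which 49.6% were above 0.

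**Figure D2:**
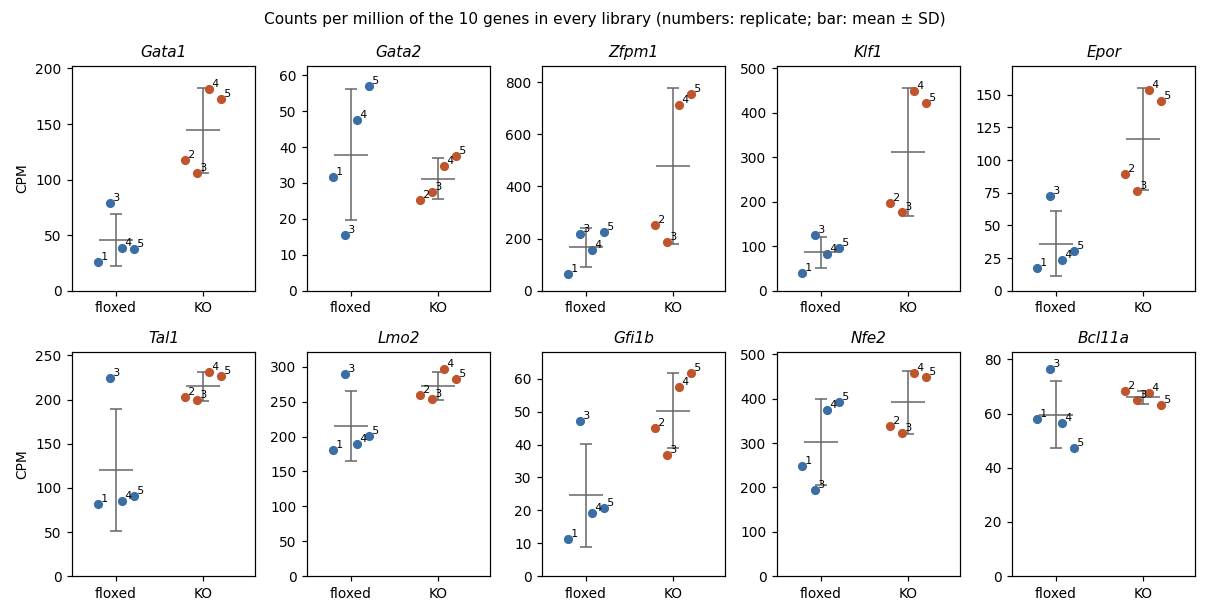
Level of each of the 10 genes in CPM (y axis, from 0) in the 4 floxed and 4 KO libraries; each point is a library with its replicate number, and the bars show the mean ± SD of the genotype. All KO points of Gata1, Klf1 and Epor lie above all floxed points, and floxed replicate 3 is the highest floxed point for both Gata1 (79.1 CPM) and Tal1 (224 CPM).

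Gata1 (chromosome X, 7959260 to 7967910, minus strand; ENSMUSG00000031162.14) is the factor that erythroid maturation cannot do without. Positions here and below are those of the counted transcript in GENCODE M21 (GRCm38). In floxed replicates 1, 3, 4 and 5 it was at 26.0, 79.1, 38.6 and 37.7 CPM, and in KO replicates 2, 3, 4 and 5 at 118, 106, 181 and 172 CPM. The lowest KO library was above the highest floxed one, which was replicate 3. The mean was 45.4 ± 23.2 CPM in floxed and 144 ± 38.1 CPM in KO (SD, n = 4 each), a 3.18-fold difference. Its log2 fold change was 1.67 (SE 0.34, edgeR adjusted p = 0.0372). It was 2.09 without floxed replicate 3 (adjusted p = 0.00134). In a fit blocked by replicate number, which uses only the 6 libraries numbered 3, 4 and 5, the value was 1.64 with an adjusted p of 0.141, and the call was lost.

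Gata2 (chromosome 6, 88193891 to 88207032, plus strand; ENSMUSG00000015053.14) is the stem and progenitor member of the pair. Its levels were 31.6, 15.5, 47.6 and 56.9 CPM in the floxed and 25.2, 27.5, 34.8 and 37.4 CPM in the KO libraries. The KO values lay within the floxed range, whose lowest value was replicate 3. KO against floxed, the log2 fold change was -0.28 (SE 0.35, edgeR adjusted p = 0.694), and without floxed replicate 3 it was -0.53 (adjusted p = 0.151). The sign turned in the libraries numbered 1 to 3, where the KO mean was higher by 0.25 on the log2 scale.

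Zfpm1 (chromosome 8, 122282141 to 122337251, plus strand; ENSMUSG00000049577.15) encodes the GATA1 cofactor FOG-1. It was at 63.8, 219, 157 and 227 CPM in the floxed libraries and at 253, 185, 713 and 756 CPM in the KO libraries. KO replicates 4 and 5 stood far above the rest, and KO replicate 3 lay below 2 of the floxed libraries. By edgeR the log2 fold change was 1.52 (SE 0.53, adjusted p = 0.136), and the mean was 166 ± 75.3 CPM in floxed and 477 ± 299 CPM in KO (SD, n = 4 each). DESeq2 gave 1.53 with an adjusted p of 0.0252. The whole span of Zfpm1 lies inside the annotated gene Gm20388 on the same strand, which had 87150 to 179437 counts per library against 2420 to 20855 for Zfpm1. Because a count here covers the whole span of a transcript, introns and both strands included, reads of Zfpm1 cannot be separated from those of Gm20388.

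Klf1 (chromosome 8, 84901928 to 84905291, plus strand; ENSMUSG00000054191.8) drives the adult beta-globin gene and many other erythroid genes. It was at 40.3, 125, 83.2 and 96.7 CPM in the floxed libraries, and at 197, 177, 449 and 422 CPM in the KO libraries. The groups did not overlap, and KO replicates 4 and 5 were more than 2-fold above KO replicates 2 and 3. The mean was 86.2 ± 35.2 CPM in floxed and 311 ± 144 CPM in KO (SD, n = 4 each), a 3.61-fold difference. This was the highest ratio among the 10 genes with all libraries, but without floxed replicate 3 Epor was higher (4.86-fold, against 4.24-fold for Klf1). The log2 fold change was 1.85 (SE 0.41, edgeR adjusted p = 0.0464). Leaving floxed replicate 3 out gave 2.09 (adjusted p = 0.0150). The replicate block gave 1.72 (adjusted p = 0.141), and the call was lost.

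Epor (chromosome 9, 21958897 to 21963506, minus strand; ENSMUSG00000006235.6) encodes the receptor for erythropoietin. It was at 17.7, 72.3, 23.6 and 30.4 CPM in the floxed libraries, and at 89.0, 76.6, 153 and 145 CPM in the KO libraries. Floxed replicate 3 nearly reached KO replicate 3, and the other floxed libraries were well below. The log2 fold change was 1.69 (SE 0.44) at an edgeR adjusted p of 0.0655, just outside the threshold, with means of 36.0 ± 24.8 and 116 ± 38.8 CPM (SD, n = 4 each). Leaving floxed replicate 3 out gave 2.29 (adjusted p = 0.00220).

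Tal1 (chromosome 4, 115056426 to 115071755, plus strand; ENSMUSG00000028717.12) and Lmo2 (chromosome 2, 103957995 to 103981878, plus strand; ENSMUSG00000032698.15) encode the DNA-binding and the bridging part of one complex. Tal1 was at 81.5, 224, 85.5 and 91.1 CPM in the floxed libraries and at 203, 199.7, 231 and 226 CPM in the KO libraries. Floxed replicate 3 sat inside the KO range and the other 3 floxed libraries at less than 100 CPM. The log2 fold change of Tal1 was 0.83 (SE 0.32, edgeR adjusted p = 0.172) with all libraries, and 1.33 (SE 0.12, adjusted p = 0.000366) without floxed replicate 3. Lmo2 showed the same layout on a smaller scale, with 180.4, 289.6, 189 and 200.4 CPM in floxed and 259, 254, 296 and 282 CPM in KO libraries. KO was above floxed by 0.34 (log2, SE 0.19, adjusted p = 0.329), and 0.53 (adjusted p = 0.0154) without floxed replicate 3. Over 62.5% of its span Lmo2 is overlapped on the other strand by 4931422A03Rik, whose total count was 97.7% of that of Lmo2, and reads of the shared stretch cannot be told apart.

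Gfi1b (chromosome 2, 28609455 to 28621945, minus strand; ENSMUSG00000026815.14) encodes a repressor that GATA1 partners with. It was at 11.3, 47.3, 19.1 and 20.6 CPM in the floxed and at 45.2, 36.8, 57.6 and 61.7 CPM in the KO libraries. Floxed replicate 3 lay above KO replicates 2 and 3. The log2 fold change was 1.03 (SE 0.39, edgeR adjusted p = 0.164), and 1.58 (SE 0.27, adjusted p = 0.00577) without floxed replicate 3.

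Nfe2 (chromosome 15, 103248212 to 103255439, minus strand; ENSMUSG00000058794.12) was at 249, 193, 374 and 391 CPM in floxed and at 338, 321.5, 458 and 449 CPM in KO libraries. The groups overlapped, and floxed replicate 3 was the lowest of all 8. The log2 fold change was 0.37 (SE 0.26, edgeR adjusted p = 0.438). Bcl11a (chromosome 11, 24078056 to 24173194, plus strand; ENSMUSG00000000861.15), which silences fetal-type globin and also acts in lymphoid cells, was at 58.1, 76.6, 56.6 and 47.1 CPM in floxed and at 68.3, 65.0, 67.4 and 63.2 CPM in KO libraries. The KO libraries of Bcl11a lay between the highest floxed library, replicate 3, and the other 3. Its log2 fold change was 0.15 (SE 0.16, adjusted p = 0.660), and its sign turned to -0.06 with library totals and no further scaling. The antisense genes 4930538E20Rik and Gm12064 overlap 12.9% and 16.5% of the Bcl11a span, with totals of 65.5% and 7.43% of the Bcl11a count.

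**Figure D3:**
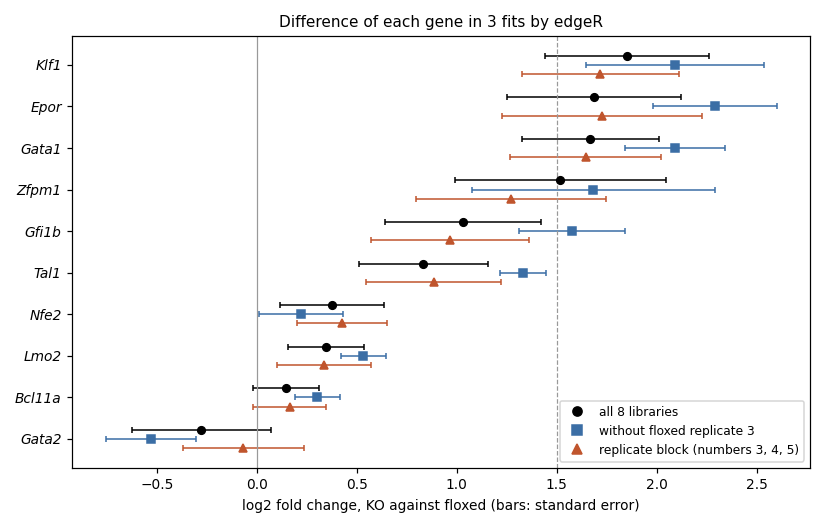
Log2 fold change of each gene, KO against floxed (x axis; points with standard error bars), in 3 edgeR fits: all 8 libraries, without floxed replicate 3, and blocked by replicate number in the 6 libraries numbered 3, 4 and 5; the dashed line marks 1.5. Klf1, Epor and Gata1 lie above 1.5 in all 3 fits, and Tal1 moves from 0.83 to 1.33 without floxed replicate 3.

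Without floxed replicate 3, the called members were 4 (Gata1, Klf1, Gfi1b and Epor, all higher in KO), where 3.88% of all genes were called and 2.47% called higher. On the adjusted p alone 6 members passed (Tal1 and Lmo2 in addition), against 17.5% of all genes and 8.9% higher. The genotypes did not overlap in 7 of 10 members, the 6 and Bcl11a, against 30.3% of all genes and 15.2% higher. Leaving out any one of the other 7 libraries (floxed replicates 1, 4 or 5, or KO replicates 2, 3, 4 or 5) gave 0 called members by edgeR, with 4 to 6 members at an unadjusted p under 0.05 (15% to 20.4% of all genes) and a smallest adjusted p of 0.066 to 0.106. In those 7 fits 51 to 156 genes were called in all, 0.229% to 0.691% of those tested. The replicate block also gave 0 (6 members at an unadjusted p under 0.05, as were 18.2% of all genes), where 0.204% of all genes were called and 0.12% called higher, while DESeq2 on all 8 libraries called Gata1, Klf1, Zfpm1 and Epor (all genes 2.3%, higher 0.881%).

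The libraries also fell apart by replicate number, in a way that no label names. In every member but Bcl11a, both KO libraries numbered 4 and 5 stood above both KO libraries numbered 2 and 3, and Zfpm1 and Klf1 showed the widest gap. Within the libraries numbered 1 to 3 the log2 difference of the KO and floxed means was 1.30 for Gata1, 1.40 for Klf1, 1.21 for Epor, 0.87 for Zfpm1, 0.82 for Gfi1b and 0.57 for Tal1. Within those numbered 4 and 5 it was 2.21, 2.28, 2.48, 1.96, 1.59 and 1.37 in the same order. Each grouping had 2 libraries a side, and these differences were not tested. The values for numbers 1 to 3 rested on floxed replicate 1. Against it alone, the mean of KO replicates 2 and 3 was higher by 2.10 for Gata1, 2.21 for Klf1, 2.22 for Epor, 1.76 for Zfpm1, 1.86 for Gfi1b and 1.30 for Tal1. Against floxed replicate 3 alone, the differences were 0.50, 0.58, 0.19, -0.01, -0.21 and -0.16 in that order, so the direction turned for Zfpm1, Gfi1b and Tal1. In the pair numbered 3, KO minus floxed was 0.42 for Gata1, 0.51 for Klf1 and 0.08 for Epor, and -0.24 for Zfpm1, -0.36 for Gfi1b and -0.17 for Tal1. With a term for numbers 4 and 5 in the edgeR fit, Gata1 (adjusted p = 0.0128), Klf1 (0.0117) and Epor (0.0311) were called, where 2.38% of all genes were, 0.913% as higher.

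**Figure D4:**
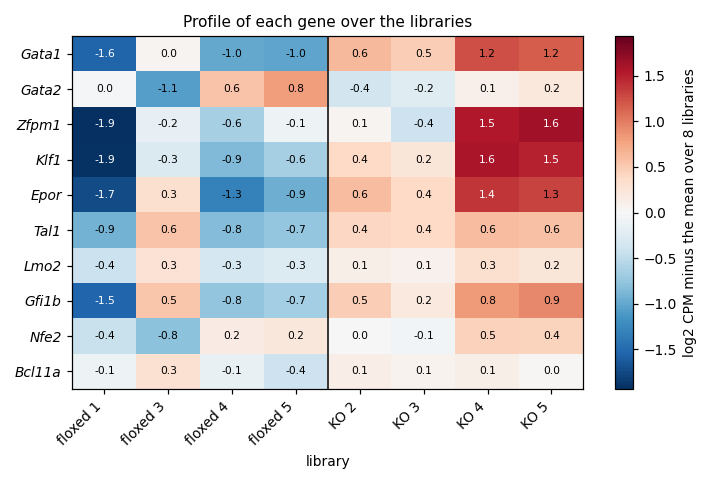
Profile of each gene over the 8 libraries; the colour and the number give log2 CPM minus the mean of that gene over the libraries, and the vertical line parts floxed from KO. Floxed replicate 3 has values above those of the other floxed libraries in Gata1, Klf1, Epor, Tal1, Lmo2, Gfi1b and Bcl11a, and lower ones in Gata2 and Nfe2.

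The balance of GATA1 to its predecessor and to its opponent was compared within each library, where the scaling of libraries plays no part. The ratio of Gata1 to Gata2 counts was 0.824, 0.812 and 0.663 in floxed replicates 1, 4 and 5, and 5.11 in floxed replicate 3. In the KO libraries it was 4.67, 3.85, 5.22 and 4.61. Floxed replicate 3 thus had a ratio within the KO range, and the other floxed libraries were several-fold lower. The mean log2 ratio was higher in KO by 1.89 (3.72-fold; 0.29 ± 1.38 against 2.19 ± 0.18, SD, n = 4 each), at p = 0.114 in an exact two-sided permutation test over 70 labelings, whose smallest p is 0.0286. Spi1 encodes PU.1, the myeloid factor that opposes GATA1. The ratio of Gata1 to Spi1 was 0.0846, 0.564, 0.0632 and 0.0541 in the floxed and 0.401, 0.465, 0.354 and 0.334 in the KO libraries. Its log2 mean was higher in KO by 1.77 (3.41-fold, exact permutation p = 0.143). Adjusted over these 2 ratios, both p-values were 0.143. Without floxed replicate 3 the differences were 2.58 and 2.54. Over the 35 labelings of 4 KO and 3 floxed libraries, the exact two-sided permutation p was 0.0571 for each with the smaller tail doubled, and 0.0286 for each by the absolute difference, each the smallest p its form can give. The second form was added after the data were seen. Spi1 itself had a log2 fold change of -0.18 (edgeR adjusted p = 0.860).

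**Figure D5:**
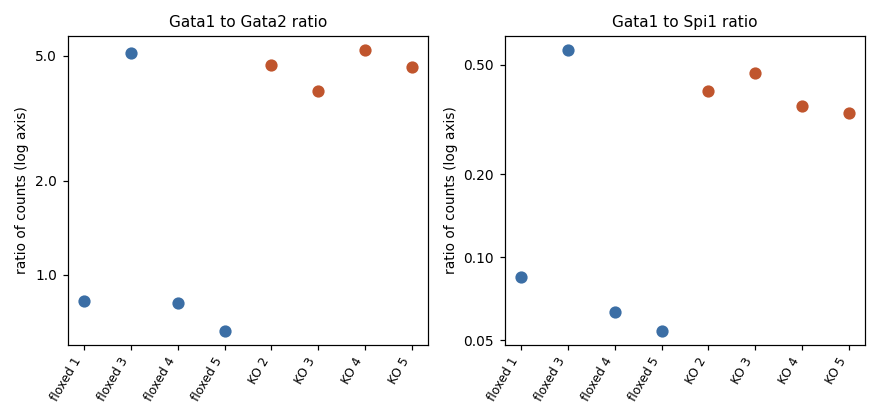
Ratio of Gata1 to Gata2 counts and of Gata1 to Spi1 counts within each library (log y axes; blue floxed, red KO). Floxed replicate 3 lies within the KO range for Gata1 to Gata2 (5.11) and above all KO libraries for Gata1 to Spi1 (0.564). The other 3 floxed libraries lie below the KO libraries in both plots.

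Levels of the members were compared with one another per length only. Per kb of spliced transcript, the floxed order from low to high was Gata2 (12.1 ± 5.81 CPM per kb, SD, n = 4), Gfi1b (14.6), Bcl11a (19.5), Epor (20.4), Gata1 (23.9), Tal1 (28.6), Zfpm1 (49.1), Klf1 (56.3), Lmo2 (141) and Nfe2 (178 ± 56.8). Only the step from Klf1 to Lmo2 was free of overlap between the ranges of neighbours. In KO libraries the order was Gata2 (9.96 ± 1.85 CPM per kb), Bcl11a (21.5), Gfi1b (29.9), Tal1 (51.0), Epor (65.9), Gata1 (75.9), Zfpm1 (141), Lmo2 (178), Klf1 (203) and Nfe2 (231 ± 42.3). There, the ranges of neighbours were separate from Gata2 to Bcl11a and from Gfi1b to Tal1. Because counts covered introns too, the levels were also set per kb of genomic span, and the order changed. Bcl11a, with the longest span (95139 bases), was then the lowest in floxed (0.626 CPM per kb), and Klf1, with the shortest (3364 bases), was the highest in KO (92.5 CPM per kb).

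Shorter annotated transcripts, lying mostly in introns of the counted one, gave the share of a member's count that fell in such a stretch. The stretches also hold exon bases, and those of Lmo2 and Zfpm1 can hold reads of the overlapping genes named above, so the shares are not the member's own intron reads. The 3 genes below were named after their values were seen. In such a stretch of Nfe2 (3572 bases, 10.6% of them in exons of the counted transcript) the share of the Nfe2 count was 25.5% to 29.5% in floxed and 18.7% to 23.4% in KO libraries. For Lmo2 (9738 bases, 2.65% in exons) it was 30.0% to 47.7% in floxed and 25.6% to 29.5% in KO. For Zfpm1 (16456 bases, 1.37% in exons) the share was 10.2% and 9.40% in floxed replicates 1 and 3 and 4.09% and 4.86% in KO replicates 2 and 3, but 1.25% to 1.86% in all 4 libraries numbered 4 and 5. These shares were not tested.

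The other genes of the pathway were counted from lists, by the same edgeR test. For the list counts here and below, the shares over all genes were as follows. By edgeR, 2.97% passed the adjusted p and 21.8% were at an unadjusted p under 0.05. By DESeq2, 11.2% passed the adjusted p. In the edgeR fit without floxed replicate 3, 17.5% passed the adjusted p, with 8.9% of all genes passing as higher. Partners and cofactors of the members, such as Ldb1, Runx1 and Fli1, gave 0 of 14 genes past the adjusted p in either direction, with a median log2 fold change of 0.00, 5 at an unadjusted p under 0.05, and 2 by DESeq2 (Bach1 lower and Ssbp3 higher). In the fit without floxed replicate 3, Mafk (0.81, adjusted p = 0.0375) and Ssbp3 (1.04, adjusted p = 0.00444) passed as higher, and Gata3 (-1.07, adjusted p = 0.0264) as lower. Other erythroid and megakaryocyte regulators likewise gave 0 of 15 by edgeR, with a median of 0.18, 4 at an unadjusted p under 0.05, and 3 by DESeq2 (E2f4 higher, Ikzf1 and Etv6 lower). Among them, leaving floxed replicate 3 out, Sox6 (1.92), E2f4 (1.13), Nfia (1.01), Hemgn (1.53) and Trim58 (1.20) passed as higher and Ikzf1 (-0.43) and Etv6 (-0.50) as lower. These genes were named after their values were seen.

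In the EPO receptor pathway 1 of 14 genes passed. Bcl2l1, which encodes the survival protein BCL-XL, rose from 131 ± 24.0 to 356 ± 73.6 CPM (SD, n = 4 each; log2 fold change 1.44, SE 0.21, edgeR adjusted p = 0.0164). The genotypes did not overlap in Bcl2l1, and its highest floxed library, replicate 3, was at 155 CPM. Jak2, the kinase bound to the receptor, had a log2 fold change of -0.45 (adjusted p = 0.266), and the signal carriers Stat5a and Stat5b had -0.05 and -0.24, neither past the threshold. Erfe, a target of the pathway that signals to iron metabolism, was at 0.595 to 2.06 CPM, with a log2 fold change of 0.17 (adjusted p = 0.842). Without floxed replicate 3, Bcl2l1 and the adaptor gene Gab1 (1.39) passed as higher, and Socs3 (-1.14), Lyn (-0.67) and Ptpn6 (-0.53), which encode brakes and a kinase of the pathway, as lower.

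Erythroid target genes had a log2 fold change above 0 in 19 of 19 tested (Ahsp was not analysed here), with a median of 1.10, and 3 were called, all higher in KO. These were the globin genes Hba-a1 (2.32, adjusted p = 0.0396) and Hbb-bt (2.16, adjusted p = 0.0321), and Tspo2 (2.01, adjusted p = 0.000455), a membrane protein of red cell precursors. Hba-a1 shares sequence with Hba-a2, so its count is uncertain. When floxed replicate 3 was left out, all 19 passed the adjusted p. In floxed replicate 3, Tspo2 was at 26.8 CPM, within the 24.2 to 28.4 CPM of the other floxed libraries. In KO it was at 91.7 to 122 CPM. The other targets had their highest floxed value in replicate 3. For Hba-a1 (17061 against at most 16452 CPM) and Hba-a2 (14410 against at most 13102 CPM) it was only just above the other floxed libraries. The summed level of the list was 29229 to 74537 CPM in floxed (replicate 3 the highest) and 126260 to 298732 CPM in KO libraries.

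Of 15 megakaryocyte genes, 7 were called, all higher in KO. Treml1 (2.71, adjusted p = 0.0239), Ppbp (2.62, adjusted p = 0.0336), Gp6 (2.35, adjusted p = 0.0162) and Pf4 (2.27, adjusted p = 0.00534) had the highest fold changes, and Itga2b (1.27, adjusted p = 0.00803) passed on the adjusted p without reaching the fold limit. Their levels were low, with a sum of 189 to 268 CPM in floxed and 375 to 441 CPM in KO libraries. Unlike for the erythroid targets, floxed replicate 3 had the lowest floxed sum (189 CPM). In Pf4, which encodes platelet factor 4, floxed replicate 3 was at 5.90 CPM, against 3.10 to 4.46 CPM in the other floxed and 16.0 to 24.5 CPM in the KO libraries. The median over the list was 1.58, and 14 of 15 fold changes were above 0.

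Among 8 factors of opposing lineages (Spi1, Cebpa, Cebpe, Gfi1, Irf8, Pax5, Ebf1 and Ikzf3) 0 passed by edgeR or DESeq2, with 1 at an unadjusted edgeR p under 0.05 (Ikzf3), a median of -0.18 and 2 of 8 above 0. Leaving floxed replicate 3 out, Pax5 (0.70) and Ebf1 (1.07) passed as higher and Gfi1 (-0.76) as lower. In the lists of other cells, edgeR with all libraries gave 2 of 8 B cell genes as higher (Vpreb1 1.66, adjusted p = 0.0266; Cd79a 0.81, adjusted p = 0.0408), 1 of 8 T and NK cell genes as lower (Ncr1 -1.72, adjusted p = 0.0291) and 1 of 8 macrophage genes as higher (C1qa 1.26, adjusted p = 0.0334). The sums were 222 to 362 and 373 to 447 CPM for B cell, 53.7 to 92.9 and 53.0 to 58.0 CPM for T and NK cell, and 484 to 1261 and 825 to 938 CPM for macrophage and monocyte genes, in floxed and KO libraries in turn. Of the 11 HSC and 10 neutrophil markers 0 passed by edgeR with all libraries, 1 of each was at an unadjusted p under 0.05, and DESeq2 gave 1 (Ly6g, lower). Without floxed replicate 3, Slamf1 (1.44, adjusted p = 0.0365) passed as higher, and the neutrophil genes Mpo, Ngp, Ltf and Ly6g as lower. In that fit 6 of 8 B cell genes passed as higher, 3 of 8 T and NK cell genes (Cd3e, Nkg7 and Ncr1) as lower, and, of 8 macrophage and monocyte genes, Vcam1, C1qa and C1qb as higher and Cd14 and Ly6c2 as lower.

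Profiles over the 8 libraries were compared with those of all tested genes of at least 1 CPM on average, by the root mean square difference of log2 CPM centred on each gene's mean. The nearest to Gata1 were Ccdc24 (0.11), Dusp8 (0.11) and Crip2 (0.11). The nearest to Epor were Sphk1 (0.09), Samd14 (0.16) and Dusp8 (0.16), and to Klf1 the globin genes Hba-a2 (0.20) and Hbb-bs (0.21), and Samd14 (0.22). The profile of Klf1 thus lay farther from its nearest gene than those of Gata1 and Epor, and 2 of its nearest were globins. Samd14 was among the nearest of both Klf1 and Epor. These are descriptions over shared libraries and carry no test.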

How the data were processed

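LT-HSC RNA of 4 asrij floxed and 4 asrij KO mice (1 library per mouse) was measured. Per the methods and the submitters' processing notes, reads passed through FastQC and Trim Galore, and Bowtie 2 placed them on reference transcripts of GRCm38/mm10. The authors deposited whole-number read counts for 138930 Ensembl transcripts per library, not normalized. The counting tool, the versions and the use of strand are not given in the sources used here. In 7 of the 8 files the values are separated by tabs under a comma-separated name. Those values were recorded as another unit for an automatic check, but the authors' deposited values are counts in all 8 files, and every value was tested to be whole and at least 0.

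Of the identifiers, 138789 were found in GENCODE M21 (GRCm38). Each gene was counted by 1 transcript, that with the most counts summed over all libraries. Counts cover the whole genomic span, introns and both strands included: in 1109 of 1109 pairs of genes with one inside an intron of the other, 688 of them on opposite strands, the outer count was at least the inner one in every library. Libraries held 56661356 to 120858975 transcript counts, and the members had at least 427 counts in each. Within a genotype, libraries were farther apart than counting noise allows (chi-square per degree of freedom of at least 10.7). Separate mice are the replicates.

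The quasi-likelihood test of edgeR 4.0.16 (R 4.3.3; filterByExpr, TMM, glmQLFTest) was run on 21902 genes, and p-values were adjusted by Benjamini-Hochberg. A gene was called at an adjusted p under 0.05 with a log2 fold change beyond 1.5 in either direction. The alternatives were other scalings and filters, DESeq2 1.42.0, limma-voom (limma 3.58.1), sums over transcripts, no haemoglobin genes, the replicate block, a term for numbers 4 and 5, and leaving out each library. The count of non-overlapping members without floxed replicate 3 was added after seeing the data. The fits were tested on simulated data. Ratios (count + 0.5) were compared by exact permutation. Python 3.11.15 was used for the other steps. Promoters came from RefSeq (GRCm38.p6).

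The replicate numbers 3, 4 and 5 occur in the labels of both genotypes, on different mice. The replicate block pairs the samples by number, as an alternative only. Deviations from the genotype means correlated at 0.374, 0.394 and 0.579 in the 3 same-numbered pairs. Among 13 pairs of other numbers the correlation ran from -0.589 to 0.603, and it was as high between different numbers within 1 to 3 and within 4 and 5. The correlations therefore do not show that same-numbered mice belong together.

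The members and the gene lists were chosen with earlier results of these data known. All members were named. Of each other list, up to 4 called genes with the largest change and up to 2 past the adjusted p alone were named, and further genes named were chosen after their values were seen. A gene that this rule would name is not reported here. For Gata1, Klf1 and Epor the 3 genes of nearest profile were named.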

Additional observations from a re-analysis of the deposited data

Results flagged for a closer look

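An outlier rule over 44 groups of 4 libraries flagged 2, where chance gives about 2.2 if the groups are independent. The groups share libraries, so this number does not show whether a library stands apart. In both flagged groups the outlying library was floxed replicate 3. Its log2 CPM of Tal1 was 7.81, against 6.35 to 6.51 in floxed replicates 1, 4 and 5. Its log2 ratio of Gata1 to Gata2 counts was 2.35, against -0.59 to -0.28. The cause was not tested.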

How the results depend on the processing

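The count of called members was 2, and the same 2 passed the adjusted p alone. Both counts were 1 with library totals and no further scaling (Klf1), 4 with DESeq2 (Gata1, Klf1, Zfpm1 and Epor), 1 with limma-voom (Gata1) and 0 with the replicate block, which leaves floxed replicate 1 and KO replicate 2 out. Leaving out 1 library gave 0 to 4 called members and 0 to 6 past the adjusted p, with floxed replicate 3 as the only omission above 0. Members whose genotypes did not overlap went from 3 to 7 without floxed replicate 3. The cause was not tested. Both counts stayed within 1.5 times the value of 2 under the other scalings and filters, without haemoglobin genes, with sums over transcripts and with the term for numbers 4 and 5. Over all genes the called number was 261, against 503 with DESeq2, 186 with limma-voom, 44 with the block, 521 with the term for numbers 4 and 5 and 857 without floxed replicate 3. Library totals with no further scaling shifted the median of all genes to -0.20, against -0.01.

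The sign turned in 5 of 247 values of single members: Gata2 (0.25) and Bcl11a (-0.00228) in the libraries numbered 1 to 3 alone, Bcl11a (-0.0601) with no further scaling, and 1 shorter transcript each of Lmo2 (-0.0208) and Bcl11a (-0.50). Of the others, 196 kept their direction and side of the threshold, 20 lost the threshold (11 of Gata1 and 9 of Klf1) and 8 gained it. A further 16, within the numbers 1 to 3 or 4 and 5 alone, have no test and moved by less than the spread between replicates, and 2 moved by more (Tal1 and Epor in numbers 4 and 5 alone). In the paired values the differences of the log2 ratios were 1.69 (Gata1 to Gata2) and 1.61 (Gata1 to Spi1) with the replicate block, and 1.599 to 2.58 and 1.42 to 2.54 with 1 library left out. In the fit of single transcripts the counted transcript of Epor had a log2 fold change of 1.81 (edgeR adjusted p = 0.0442). With 4 libraries a genotype, the median standard error of the members was 0.34 on the log2 scale, which limits what could be called.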
